A study of Mus musculus with 4 samples.

Results

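The 39 genes described here are genes of megakaryocytes and platelets, followed in a mouse bone marrow culture that forms osteoclasts, the multinucleated cells that resorb bone. They were taken from a list of names chosen from textbook knowledge, with earlier results of these data known. Every array probe set whose platform annotation gives 1 of these symbols was used. Of the 39 genes, 37 had at least 1 probe set, with 72 probe sets among them, out of 18193 genes and 45037 probe sets measured in all. Gp1ba and Serpina3g were not analysed here, since no probe set was annotated with their symbol alone. A gene was taken as measured where its signal was above a floor of 32.4 signal units, the median of all values, on at least 1 array, which held for 35 of the 37 genes and for 12438 of all genes. Cd226 and Dnm3 stayed below the floor on all arrays, Cd226 at 13.9, 11.4, 6.45 and 1.92 units on days 1, 4, 5 and 7, and Dnm3 at 0.422 to 21.9 units over its 5 probe sets.

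The mice were C57Bl/6J females, 12 weeks old, and marrow RNA of each of 4 days was hybridised to 1 Affymetrix array. The day 1 sample is marrow on the day it was taken, with no time in culture. The day 4 sample had been kept for 3 days with 10 nM vitamin D3 and 10% serum in the medium. The day 5 and day 7 samples were given 20 ng/ml M-CSF, a growth factor of macrophages, and 40 ng/ml RANKL, the cytokine that drives osteoclast formation, after those 3 days, with vitamin D3 kept at 10 nM. Their labels give 4 and 6 days of differentiation. All 4 samples are labelled as primary osteoclasts, day 1 included. The labels do not say whether the arrays follow 1 culture or whether marrow of several mice was pooled. Both arrays with M-CSF and RANKL are also the latest in time, so the effect of the cytokines and that of time in culture cannot be told apart. With 1 array a day there is no replicate spread and no test; a gene counts as higher or lower where 2 days differ by 2-fold or more, and all values describe these 4 arrays.

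Megakaryocytes are the large marrow cells that shed platelets. Platelets hold on to damaged vessel walls through surface glycoproteins, are set off by thrombin, collagen and thromboxane, and release alpha granules filled with chemokines, adhesion proteins and clotting factors. They carry RNA made in the megakaryocyte, so either cell can give these signals in a marrow sample. The red cell and megakaryocyte lineages share the transcription factors GATA1, FOG and NFE2, and ETS factors such as FLI1 act on many platelet genes. Of the 39 genes, 12 are known in marrow mostly from megakaryocytes and platelets and are called the core genes here: Pf4, Ppbp, Gp1ba, Gp1bb, Gp5, Gp9, Gp6, Tubb1, Treml1, Clec1b, F2rl2 and F2rl3. All of these but Gp1ba were measured, which leaves 11. The core was also chosen with earlier results of these data known, so its contrast with the other genes is a description and not a test. The other 27 genes are known from further marrow cells too, such as endothelial cells, monocytes and stroma, and 24 of them were measured.

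The RefSeq promoter table (GRCm38.p6; 250 bases before and 50 after the annotated start) held 33 of the 39 genes, in 37 windows. The windows of 6 core genes are printed because 5 of them belong to genes that fell on day 5 against day 4 and the last, that of Pf4, does not, although it is the neighbour of Ppbp with 0 protein-coding genes between them. The windows are, on the minus strand, chr16:30310732-30311031 for Gp5 and, on the plus strand, chr6:87777820-87778119 for Gp9, chr6:129397047-129397346 for Clec1b, chr13:95696670-95696969 for F2rl2, chr5:90768268-90768567 for Ppbp and chr5:90772185-90772484 for Pf4. Each reads 5′ to 3′ in the direction of the gene. Capitals mark AGATAA, a form of the sequence that GATA factors bind, and GGAAG, a core that ETS factors bind. Their reverse complements TTATCT and CTTCC are in capitals too. Other forms of the GATA sequence were neither marked nor counted.
Gp5: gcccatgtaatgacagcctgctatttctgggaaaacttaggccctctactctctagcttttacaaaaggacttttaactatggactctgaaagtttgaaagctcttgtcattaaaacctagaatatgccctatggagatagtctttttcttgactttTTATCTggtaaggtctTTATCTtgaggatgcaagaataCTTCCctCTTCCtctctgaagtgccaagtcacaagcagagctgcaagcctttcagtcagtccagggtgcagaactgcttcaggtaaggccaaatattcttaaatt
Gp9: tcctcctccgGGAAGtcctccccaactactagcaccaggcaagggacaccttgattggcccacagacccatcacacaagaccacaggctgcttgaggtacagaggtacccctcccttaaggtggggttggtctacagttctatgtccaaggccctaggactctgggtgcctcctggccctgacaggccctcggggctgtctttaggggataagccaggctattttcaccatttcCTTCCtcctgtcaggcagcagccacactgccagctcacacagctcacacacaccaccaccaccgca
Clec1b: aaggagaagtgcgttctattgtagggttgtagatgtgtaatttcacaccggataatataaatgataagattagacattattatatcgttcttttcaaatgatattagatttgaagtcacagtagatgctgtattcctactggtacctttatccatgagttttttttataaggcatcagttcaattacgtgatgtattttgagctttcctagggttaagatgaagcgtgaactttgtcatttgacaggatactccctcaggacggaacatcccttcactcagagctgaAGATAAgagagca
F2rl2: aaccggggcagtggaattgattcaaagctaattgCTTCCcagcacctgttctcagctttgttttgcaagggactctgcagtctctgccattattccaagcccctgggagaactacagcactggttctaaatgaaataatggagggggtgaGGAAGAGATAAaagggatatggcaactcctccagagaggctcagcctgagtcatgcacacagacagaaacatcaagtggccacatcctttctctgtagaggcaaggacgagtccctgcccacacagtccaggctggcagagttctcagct
Ppbp: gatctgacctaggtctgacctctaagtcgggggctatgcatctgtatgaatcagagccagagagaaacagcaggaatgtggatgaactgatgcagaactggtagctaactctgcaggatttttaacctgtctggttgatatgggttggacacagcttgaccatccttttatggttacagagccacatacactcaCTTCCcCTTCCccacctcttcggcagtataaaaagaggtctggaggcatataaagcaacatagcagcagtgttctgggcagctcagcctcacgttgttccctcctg
Pf4: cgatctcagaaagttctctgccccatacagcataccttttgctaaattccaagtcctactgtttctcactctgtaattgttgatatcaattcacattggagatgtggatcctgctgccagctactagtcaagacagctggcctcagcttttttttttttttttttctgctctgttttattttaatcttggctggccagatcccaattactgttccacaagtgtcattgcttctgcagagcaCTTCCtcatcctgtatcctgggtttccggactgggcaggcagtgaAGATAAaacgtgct
Among these windows AGATAA lies in that of Gp5, in reverse with its first base at 93 and again at 77 bases before the start, in that of F2rl2 at 95 bases before it, and after the start in those of Clec1b and Pf4. In the F2rl2 window it directly follows a GGAAG. On either strand AGATAA was found in 6 of the 12 core windows (50%), in 8 of the 37 windows of all the genes (21.6%) and in 11.2% of the 32851 promoter windows in the table. GGAAG was found in 11 of 12 core windows (91.7%), in 31 of 37 windows (83.8%) and in 71.4% of all windows. CCGGAAG, a longer ETS sequence that contains GGAAG, was found in 0 of 12 core windows, in 2 of 37 (5.41%) and in 8.86% of all. A match of letters is a description of the window and not a site of binding, and the windows of Ppbp, which fell on day 5, and of Gp9, which fell too, held no AGATAA.

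Between fresh marrow and day 4 the platelet genes were called about as often as all genes, and most were lower on day 7 than on day 4. On day 4 compared with day 1, 3 of the 35 genes were higher, against 9.66% of all genes, and 3 were lower, against 8.33% of all. None of the 11 core genes was called in either direction, and their median log2 difference was 0.29, beside 0.22 for the 35 genes and 0.03 for all genes. With quantile normalization the count of higher genes was 5, with F2rl3 and Gucy1b1 added, beside 10.3% of all genes, and at a 1.5-fold call 6 genes were higher, beside 19.5% of all genes. On day 5 compared with day 4, 0 of 35 genes were higher and 21 were lower, beside 1.92% and 3.84% of all genes. The core had 9 of 11 genes lower with a median of -1.87, beside -1.26 for the 35 genes and 0.03 for all genes.

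On day 7 compared with day 5, 15 of 35 genes were lower and 0 higher, beside 5.45% and 0.796% of all genes. The median was -0.77 for the 35 genes, -1.55 for the core, in which 7 of 11 were lower, and -0.09 for all genes. With a floor of 68.9 units 6 of 34 genes were lower at this step, beside 4.34% of all genes at that floor. The calls lost there were those of Gp5, Gp9, Treml1, Vwf, Selp, Mmrn1, F10, Alox12 and Slamf1. On day 7 compared with day 4, 25 genes were lower and 0 higher, beside 8.61% and 2.95% of all genes, with medians of -1.93 for the 35 genes and -3.62 for the core. On day 7 compared with day 1, 22 genes were lower and 2 higher, beside 15.6% and 12.2% of all genes, with medians of -1.98 for the 35 genes, -3.33 for the core and 0 for all genes. Above the floor were 35, 35, 33 and 22 of the genes on days 1, 4, 5 and 7, and 11, 11, 10 and 5 of the core genes. Of all probe sets, 52.6%, 50.9%, 49.9% and 46.6% were above the floor on the same days. In samples of bulk RNA, a smaller share of megakaryocytes and platelets among the cells and less RNA in each of them cannot be told apart.

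**Figure D1:**
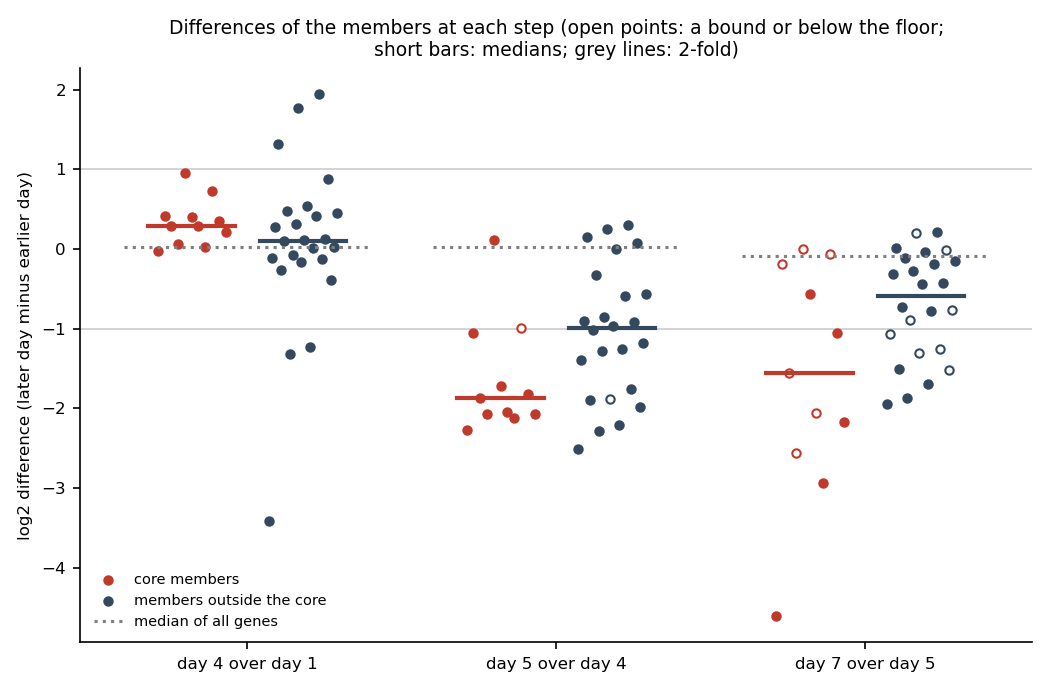
Log2 difference of each measured platelet gene (later day minus earlier day) at 3 steps (day 4 set against day 1, day 5 against day 4, day 7 against day 5), for core genes and other genes; short bars are medians, the dotted line is the median of all genes and the grey lines mark 2-fold. The core medians are 0.29, -1.87 and -1.55 at the 3 steps, and Ppbp is the lowest point at the last step at -4.61.

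Gp1bb, Gp5, Gp9, Gp6, Clec1b and Treml1 form a group of 6 measured platelet receptors, and none was called on day 4 against day 1. On day 5 against day 4, 5 of 6 were lower, beside 3.84% of all genes. On day 7 against day 5, 5 of 6 were lower, beside 5.45% of all genes. With a floor of 68.9 the calls of Gp5, Gp9 and Treml1 at the last step are lost, with log2 differences of -0.97, -0.46 and -0.61, and those of Gp1bb and Clec1b are kept. Gp1bb, a subunit of the von Willebrand factor receptor, had signals of 645, 791, 191 and 23.3 on days 1, 4, 5 and 7. It was 4.14-fold lower on day 5 than on day 4, and at least 5.89-fold lower at day 7 set against day 5, a bound because its day 7 signal lay under the floor. Gp5, a further subunit of that receptor, had signals of 488, 649.8, 135 and 25.6, and was 4.81-fold lower on day 5 than on day 4 and at least 4.17-fold lower at day 7 set against day 5. Gp9, the subunit that completes the complex, had signals of 326, 398, 95.0 and 10.1, and was 4.19-fold lower on day 5 than on day 4 and at least 2.93-fold lower at day 7 set against day 5. All of these subunits thus stood highest on day 4 and below the floor on day 7. Against day 4, day 7 was at least 24.4-fold lower for Gp1bb, at least 20.0-fold for Gp5 and at least 12.3-fold for Gp9. A dimmer probe set of Gp1bb was at 32.6, 61.8, 20.7 and 23.0, with its highest value on the same day.

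Clec1b, the receptor for podoplanin, had signals of 1324, 1381, 392 and 87.4 on days 1, 4, 5 and 7. It was 3.52-fold lower on day 5 than on day 4, 4.49-fold lower on day 7 than on day 5 and 15.8-fold lower on day 7 than on day 4. Treml1, a receptor kept in alpha granules until platelets are activated, had signals of 453, 444, 105 and 50.7. Its level was 4.21-fold lower on day 5 than on day 4 and 2.08-fold lower on day 7 than on day 5; the last call is lost with a floor of 68.9, with no floor and 16 added, with quantile normalization and with median scaling. Gp6, the collagen receptor, was dim at 55.4, 64.5, 30.3 and 7.75, and with day 5 under the floor its difference from day 4 is a bound of at least 1.99-fold, short of a call but past it with a floor of 8.43. Of the 6 measured receptors of this group 5 were lower on day 5 than on day 4, and the median log2 difference was -2.06.

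**Figure D2:**
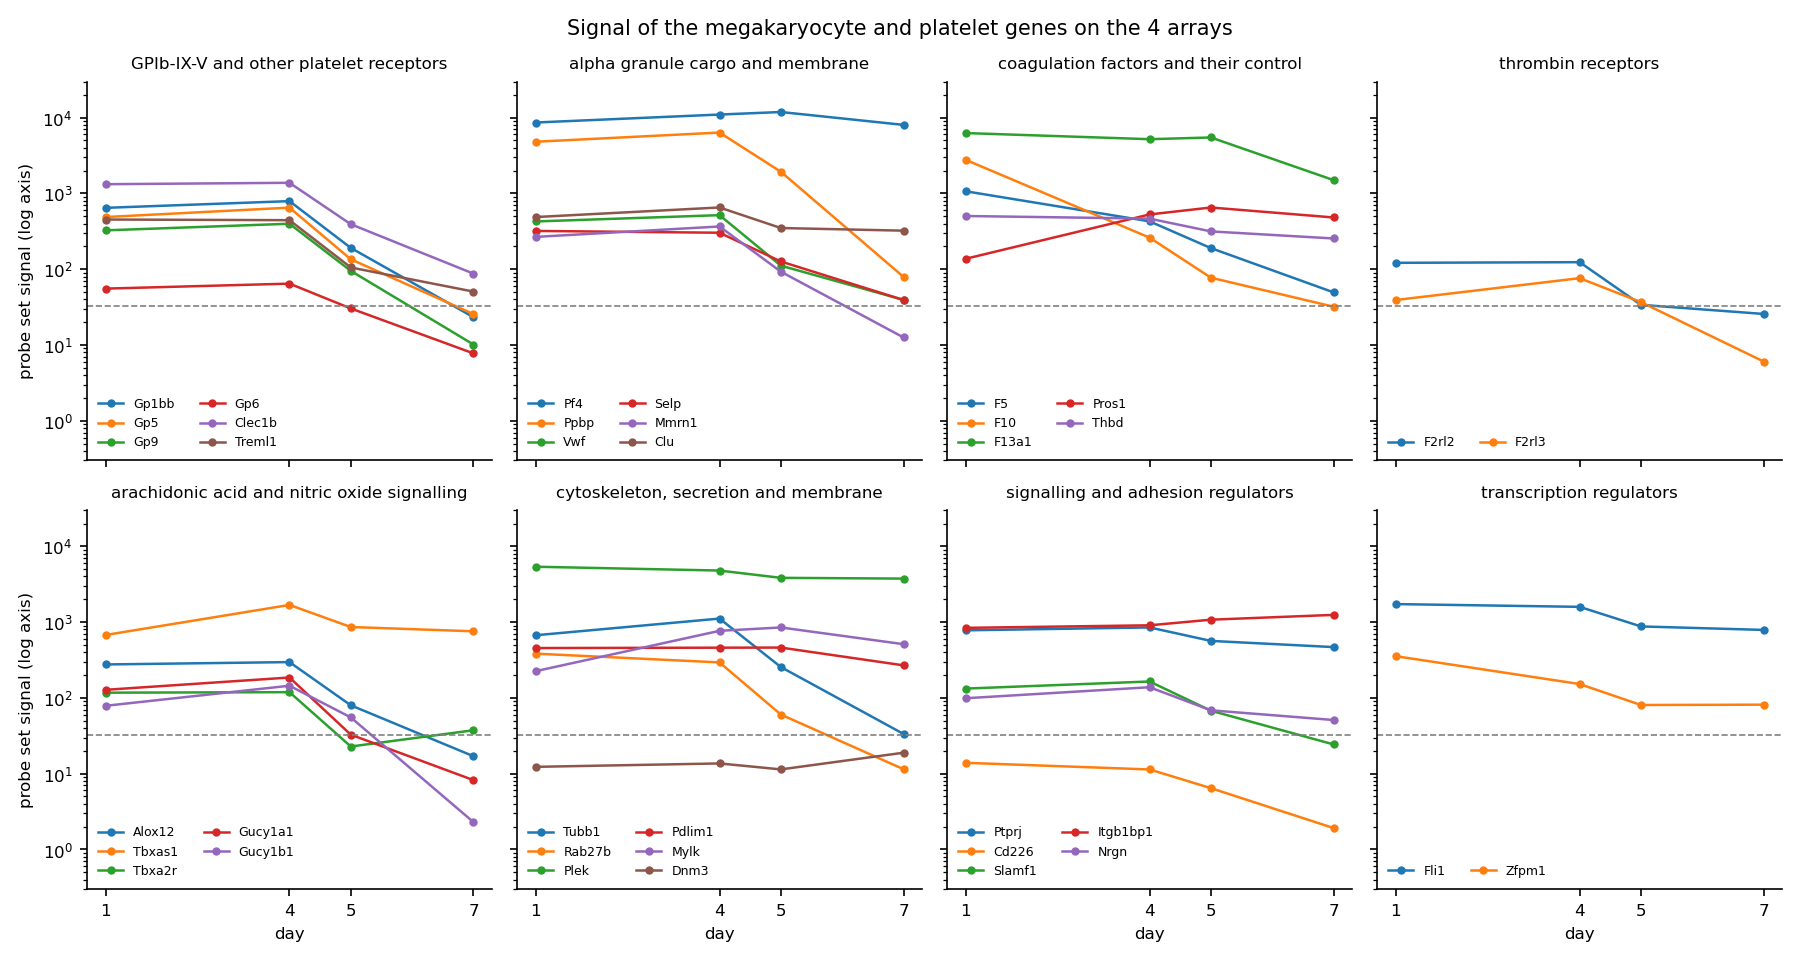
Probe set signal (log axis) of the platelet genes on days 1, 4, 5 and 7, with 1 panel for each role and 1 line for each gene. Most lines of the receptor panel are level between days 1 and 4 and drop afterwards, while Pf4 stays between 8027 and 11871.

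Among alpha granule genes, the neighbours Ppbp and Pf4 took different courses. Ppbp, the precursor of several platelet chemokines, had signals of 4809, 6359.7, 1933 and 79.3 on days 1, 4, 5 and 7. It was 3.29-fold lower on day 5 than on day 4 and 24.4-fold lower on day 7 than on day 5. Its log2 difference of -4.61 at that step was the lowest among 10684 genes measured on both arrays, and its 80.2-fold lower signal on day 7 than on day 4 was the lowest of 10601. Pf4, platelet factor 4, is the next protein-coding gene on chromosome 5 and had signals of 8628, 10990.2, 11871 and 8027. None of its differences reached 2-fold, with log2 values of 0.35 for day 4 against day 1, 0.11 for day 5 against day 4, -0.56 for day 7 against day 5 and -0.10 for day 7 against day 1. On day 7 Pf4 stood at 73.0% of its day 4 signal and Ppbp at 1.25%.

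In mice Pf4 RNA is also known from macrophages. The 17 measured macrophage and monocyte markers had summed signals of 63990, 89052, 84014 and 89237 on days 1, 4, 5 and 7, with 16 or 17 of them above the floor each day. Of these markers 2 were higher and 2 lower on day 5 than on day 4 (median -0.08), and 0 were higher and 2 lower on day 7 than on day 5 (median 0.03). On day 4 compared with day 1, 5 were higher and 3 lower (median 0.39), beside 9.66% and 8.33% of all genes. The shares of all genes were 1.92% higher and 3.84% lower on day 5 over day 4. They were 0.796% and 5.45% on day 7 over day 5. Csf1r, the M-CSF receptor, was at 11964, 11068, 11752 and 11651. Other markers of the list moved far more, in both directions. Ccr2 was at 3887, 121, 81.6 and 28.4 on the same days, and Marco was at 566, 3890, 3353 and 1276. The part of macrophages in the Pf4 signal was not tested.

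**Figure D3:**
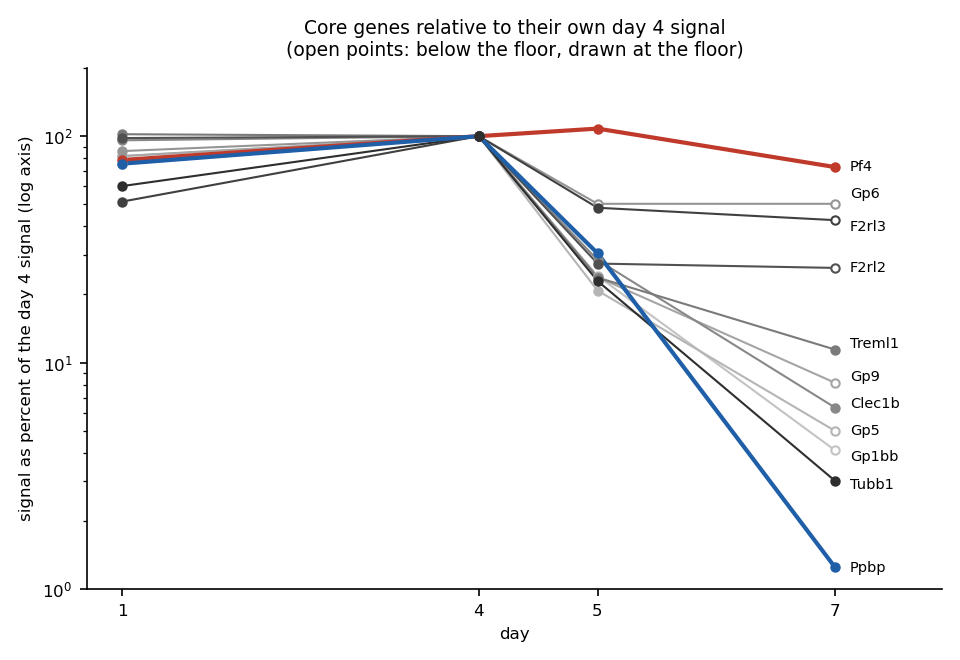
Signal of each measured core gene as a percent of its own day 4 signal (log axis) on days 1, 4, 5 and 7; open points lay below the floor and are drawn at the floor. The 9 core genes called lower on day 5 lie at 20.8% to 48.3% of day 4 on that day, and Pf4 lies at 108% on day 5 and 73.0% on day 7.

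The adhesion proteins of alpha granules fell with the receptors. Vwf, which bridges collagen and platelets, had signals of 427, 517, 111 and 39.4 on days 1, 4, 5 and 7, and was 4.64-fold lower on day 5 than on day 4 and 2.83-fold lower on day 7 than on day 5. Mmrn1, the granule protein multimerin that binds factor V, had signals of 267, 366, 92.8 and 12.6, and was 3.95-fold lower on day 5 than on day 4 and at least 2.86-fold lower at day 7 set against day 5. Selp, P-selectin, which moves to the surface of activated platelets to bind leukocytes, had signals of 320.1, 303.0, 126 and 39.2. Its fall was 2.40-fold on day 5 against day 4 and 3.22-fold on day 7 against day 5, and its other probe sets ran the same way on day 5. Between days 1 and 4 the probe sets of Selp did not run one way, with log2 differences of -0.91 to 0.60. Clu, the chaperone clusterin, had signals of 488, 653, 349.6 and 323, with a log2 difference of -0.90 on day 5 over day 4, and was 2.02-fold lower on day 7 than on day 4, a call that is lost with no floor and 16 added, with quantile normalization and with median scaling.

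Vwf, Selp, Mmrn1 and Thbd are also genes of endothelial cells. The summed signal of 14 endothelial markers was 1749, 1697, 1339 and 786 on days 1, 4, 5 and 7, with 13, 11, 11 and 10 of them above the floor. Of the 13 endothelial markers that were above the floor on some array, 0 were called on day 4 compared with day 1 (median -0.19). On day 5 compared with day 4, 1 was lower (Stab2 at 2.93-fold) with a median of -0.20. On day 7 compared with day 5, 2 were lower, Pecam1 at 3.82-fold and Emcn at 2.69-fold, with a median of -0.39. Of all genes, 8.33%, 3.84% and 5.45% were lower into days 4, 5 and 7. Tie1, an endothelial receptor kinase, was below the floor on all 4 arrays. The part of endothelial cells in these signals was not tested.

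Coagulation genes did not share a course. F10, clotting factor X, had signals of 2779, 261, 77.3 and 32.0 on days 1, 4, 5 and 7. It was 10.6-fold lower on day 4 than on day 1, 3.38-fold lower on day 5 than on day 4 and at least 2.38-fold lower at day 7 set against day 5. Its level had thus dropped before most platelet genes did, and its other probe sets, at 466, 52.3, 7.45 and 1.5 and at 467, 88.2, 37.6 and 19.8, ran the same way. The call of F10 on day 7 against day 5 is lost with a floor of 68.9, with no floor and 16 added, with quantile normalization and with the mean over probe sets. F5, the cofactor of factor X that platelets carry in their granules, had signals of 1068, 428, 190.0 and 49.5, and was 2.49-fold lower on day 4 than on day 1, 2.26-fold lower on day 5 than on day 4 and 3.84-fold lower on day 7 than on day 5. F5 and Selp are neighbours on chromosome 1, and their differences on day 4 over day 1 were -1.32 and -0.08. F5 and F10 were the 2 genes of the 35 that were lower at every step.

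F13a1, the factor XIII subunit that cross-links fibrin and that monocytes also make, had signals of 6262, 5197, 5476 and 1499 on days 1, 4, 5 and 7. It was 3.65-fold lower on day 7 than on day 5 and was not called at the earlier steps. Pros1, the anticoagulant protein S, had signals of 137, 528, 652 and 482, and was 3.85-fold higher on day 4 than on day 1 and 3.51-fold higher on day 7 than on day 1. Thbd, thrombomodulin, which turns thrombin to an anticoagulant role, had signals of 504, 465, 316 and 254, and none of its differences reached 2-fold. Pros1 was thus lowest on day 1, where F5, F10, F13a1 and Thbd were highest.

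Of the thrombin receptors, F2rl2, the mouse platelet cofactor for thrombin sensing, had signals of 121, 124, 33.9 and 25.7 on days 1, 4, 5 and 7 and was 3.65-fold lower on day 5 than on day 4. F2rl3, the receptor that signals in mouse platelets, was dim at 39.2, 76.2, 36.8 and 6.05. Its signal was 2.07-fold lower on day 5 than on day 4, a call that is lost with no floor and 16 added and with quantile normalization. With a floor of 68.9 units neither receptor is called at that step. Both were below the floor on day 7.

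The genes of arachidonic acid metabolism and of nitric oxide sensing were lower on day 5 than on day 4 in 4 of 5 cases. Of all genes, 3.84% were lower at that step. Alox12, the platelet lipoxygenase, had signals of 276, 297, 79.9 and 17.0 on days 1, 4, 5 and 7, and was 3.72-fold lower on day 5 than on day 4 and at least 2.46-fold lower at day 7 set against day 5. Tbxa2r, the thromboxane receptor, had signals of 117, 119, 22.8 and 37.4, and was at least 3.67-fold lower at day 5 set against day 4 and 3.18-fold lower on day 7 than on day 4. Tbxas1, the thromboxane synthase that macrophages also carry, had signals of 676, 1686, 862 and 757. Tbxas1 was 2.49-fold higher on day 4 than on day 1, had a log2 difference of -0.97 on day 5 over day 4, and was 2.23-fold lower on day 7 than on day 4. With quantile normalization Tbxas1 is also called lower on day 5 against day 4, and with median scaling its day 7 call against day 4 is lost. Both calls of Tbxa2r are lost with a floor of 68.9, where each log2 difference is -0.79. On day 7 over day 1 the log2 difference of the synthase was 0.16, too small for a call. That of the receptor was -1.65, a call that is also lost with a floor of 68.9.

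Gucy1a1 and Gucy1b1 encode the subunits of the enzyme that makes cyclic GMP when nitric oxide binds, a brake on platelets that vascular smooth muscle uses too, and they are neighbours on chromosome 3. Gucy1a1 had signals of 128, 186, 32.7 and 8.22 on days 1, 4, 5 and 7, and was 5.68-fold lower on day 5 than on day 4. Gucy1b1 had signals of 78.7, 145, 55.2 and 2.30, and was 2.62-fold lower on day 5 than on day 4. A dimmer Gucy1b1 probe set, at 52.9, 79.7, 48.4 and 17.7, had a log2 difference of -0.72 at that step, short of a call. Both genes were highest on day 4 and below the floor on day 7. Averaged over all probe sets of a gene, where dim probe sets count at the floor, the day 5 over day 4 differences of Gucy1a1, Mmrn1, F2rl2 and Slamf1 were -0.84, -0.99, -0.93 and -0.54 and thus under 2-fold. The same average brought Selp, Mmrn1, F10, Alox12 and Slamf1 under 2-fold on day 7 against day 5, and Zfpm1 on day 4 against day 1.

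Of the 5 measured genes of the platelet cytoskeleton and of secretion, 2 were lower on day 5 than on day 4 and 1, Mylk, was higher on day 4 than on day 1. Tubb1, the tubulin of the platelet's marginal band, had signals of 671, 1114, 255 and 33.5 on days 1, 4, 5 and 7. It was 4.36-fold lower on day 5 than on day 4, 7.64-fold lower on day 7 than on day 5 and 33.3-fold lower on day 7 than on day 4. Rab27b, a small GTPase of granule release, had signals of 384, 294, 60.3 and 11.5, and was 4.87-fold lower on day 5 than on day 4 and at least 9.06-fold lower at day 7 set against day 4. Its 4 probe sets ran both ways between days 1 and 4, with log2 differences of -0.38 to 0.86. On day 5 over day 4, 3 of its probe sets were above the floor on both arrays, with differences of -2.34 to -0.94. The Rab27b probe set at 72.5, 132, 68.8 and 42.0 was short of a call there and stayed above the floor on day 7. Plek, pleckstrin, a main target of protein kinase C in platelets that leukocytes also hold, had signals of 5383, 4792, 3840.2 and 3752, and Pdlim1, an actin-linked adaptor, had signals of 455, 460.0, 461 and 269. On their brightest probe sets neither Plek nor Pdlim1 was called in any of the 5 comparisons. A dimmer Plek probe set had signals of 722, 343, 446 and 471 on the same days. Its first step was a drop past 2-fold, with a log2 difference of -1.07, and it rose afterwards while the brightest probe set went down.

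Mylk, the kinase of myosin light chain that smooth muscle holds in large amounts, had signals of 225, 767, 850.3 and 512 on days 1, 4, 5 and 7. It was 3.41-fold higher on day 4 than on day 1 and 2.27-fold higher on day 7 than on day 1, and a second probe set at 129, 629, 823 and 532 ran the same way. Stromal and smooth muscle markers moved on the same arrays. On day 4 compared with day 1, 12 of 15 were higher and 0 lower (median 3.49), beside 9.66% and 8.33% of all genes. The summed signal of these markers was 5325, 37039, 44680 and 30928. On day 5 compared with day 4, 0 were higher and 1 lower (median 0.28), beside 1.92% and 3.84% of all genes. On day 7 compared with day 5, 0 were higher and 6 lower (median -0.89), beside 0.796% and 5.45%. Of these 15 markers 11, 14, 14 and 15 were above the floor on the 4 days, and their part in the signals of Mylk, Pros1 and Clu was not tested.

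Among the signalling genes, Slamf1, an adhesion receptor of platelets and lymphocytes, had signals of 133, 165, 67.8 and 24.3 on days 1, 4, 5 and 7, and was 2.43-fold lower on day 5 than on day 4 and at least 2.09-fold lower at day 7 set against day 5. Nrgn, a calmodulin-binding protein found in neurons and platelets, had signals of 98.9, 138, 68.6 and 51.1. The difference of Nrgn on day 5 from day 4 was 2.02-fold lower, just past the call and lost with no floor and 16 added and with quantile normalization. Ptprj, a receptor phosphatase that sets the readiness of platelets, had signals of 779, 851, 565 and 468, and its 4 probe sets gave log2 differences of -0.93 to 0.57 on day 4 over day 1. Itgb1bp1, an adaptor of integrin tails, had signals of 840.2, 908, 1077 and 1246. It was the only gene of the 35 with its highest signal on day 7, where its log2 difference from day 1 was 0.57. Of the 4 measured signalling genes, 2 were called lower on day 5 against day 4, beside 3.84% of all genes.

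On their brightest probe sets the transcription regulators Fli1 and Zfpm1 were 1.81-fold and 1.89-fold lower on day 5 than on day 4, just short of a call. A dimmer Fli1 probe set, at 545, 546, 255 and 276 on days 1, 4, 5 and 7, had a log2 difference of -1.10 at that step. Fli1, an ETS factor of megakaryocytes that many blood and endothelial cells use, had signals of 1730.0, 1591, 877 and 789 on days 1, 4, 5 and 7, with a log2 difference of -0.86 on day 5 over day 4. It was 2.19-fold lower on day 7 than on day 1 and 2.02-fold lower on day 7 than on day 4; the call against day 4 is lost with no floor and 16 added, with quantile normalization, with median scaling and with the mean over probe sets, and that against day 1 with median scaling. Zfpm1, the GATA1 partner FOG, had signals of 356, 152, 80.6 and 81.4, and was 2.33-fold lower on day 4 than on day 1 and 4.37-fold lower on day 7 than on day 1. Zfpm1 thus dropped first between days 1 and 4, as F10 and F5 did. On that step 9 of 10 measured red cell markers were lower as well (median -5.09), beside 8.33% of all genes. The summed signal of these markers was 29386 on day 1 and 388 to 458 afterwards. At the later steps 0 were called, when 2 of 11 were above the floor. The part of red cell precursors in the Zfpm1 signal was not tested.

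Beyond the listed genes, 36 other genes known in megakaryocytes and platelets were set beside them, of which 29 were measured. On day 4 compared with day 1, 2 were higher and 5 lower (median -0.30), beside 9.66% and 8.33% of all genes. Nfe2, a transcription factor needed for platelet shedding and shared with red cells, had signals of 3353, 451, 135 and 9.87 on days 1, 4, 5 and 7 and was 7.44-fold lower on day 4 than on day 1. P2rx1, an ATP-gated channel, was 2.72-fold lower at 122 on day 4, against 331 on day 1. Higher on day 4 than on day 1 were the myosin light chain Myl9, also a smooth muscle gene, at 8.14-fold, and the scavenger receptor Cd36, also a macrophage gene, at 2.71-fold. On day 5 compared with day 4, 0 of the 29 were higher and 7 lower (median -0.46), beside 1.92% and 3.84% of all genes. Of the 35 listed genes 21 were lower at this step. Among the 29 other genes these were as follows. Lyl1, a factor of blood progenitors, was 4.17-fold lower and Slc35d3, a carrier of platelet dense granules, at least 3.94-fold. Nfe2 was 3.34-fold and Gata1 2.56-fold lower.

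On day 7 compared with day 5, 1 of the 29 was higher and 5 were lower (median -0.31), beside 0.796% and 5.45% of all genes. Itga2b, the alpha subunit of the fibrinogen receptor, had signals of 1168, 1042, 469 and 116 on days 1, 4, 5 and 7 and was 4.05-fold lower on day 7 than on day 5. Thbs1, the granule protein thrombospondin that stromal cells also make, was 3.15-fold lower, Rasgrp2, which activates the integrin switch Rap, 2.58-fold, and Nfe2 at least 4.16-fold. On day 7 compared with day 4, 0 were higher and 11 lower (median -0.87), beside 2.95% and 8.61% of all genes. On day 7 compared with day 1, 4 were higher and 16 lower (median -1.24), beside 12.2% and 15.6% of all genes. Itga2b and Itgb3 code for the chains of one receptor, and the Itgb3 chain, which osteoclasts also use, was at 1156, 1257, 677 and 610.2.

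**Figure D4:**
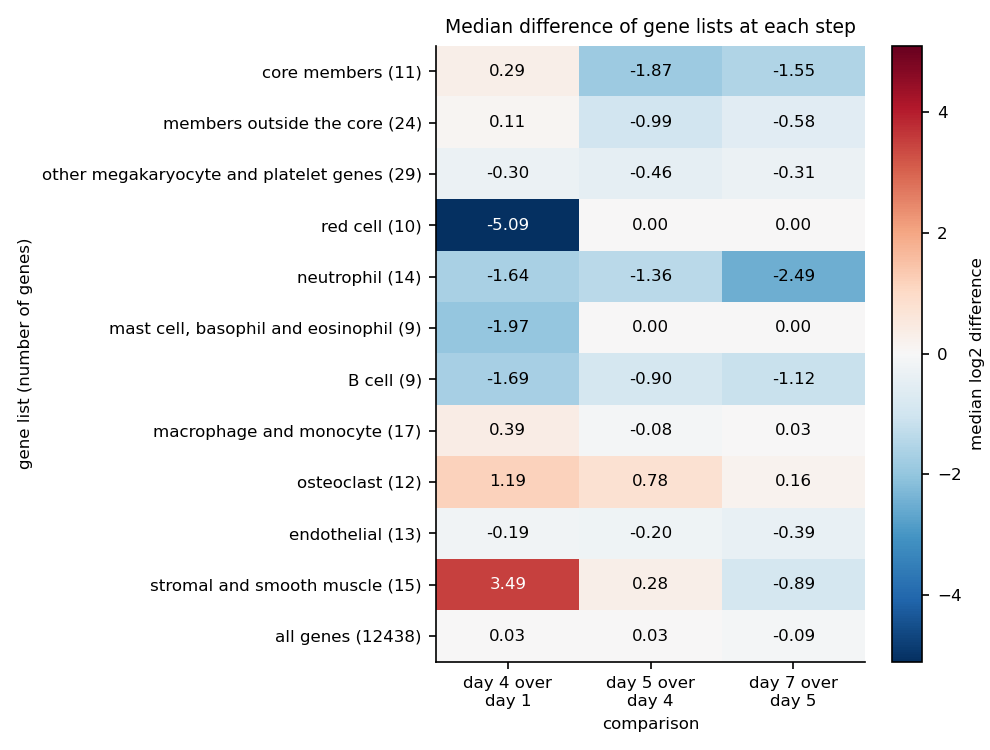
Median log2 difference of the platelet genes, of other megakaryocyte genes and of marker lists of other cell types at the steps into day 4, into day 5 and into day 7, with the number of genes of each list above the floor on some array. The core platelet genes are at 0.29 at the first step, where endothelial markers are at -0.19, neutrophil markers at -1.64 and red cell markers at -5.09.

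Markers of other blood cells moved on the same arrays, most of them from the first step. Of all genes, 8.33%, 3.84% and 5.45% were lower into days 4, 5 and 7, and 9.66%, 1.92% and 0.796% were higher. Of 14 neutrophil markers 10 were lower and 0 higher on day 4 compared with day 1 (median -1.64), 9 lower on day 5 compared with day 4 (median -1.36) and 11 lower on day 7 compared with day 5 (median -2.49). Of 9 B cell markers 7, 4 and 5 were lower at the 3 steps (medians -1.69, -0.90 and -1.12). Of 9 measured markers of mast cells, basophils and eosinophils 7, 2 and 2 were lower, with medians of -1.97, 0 and 0, and of 4 measured T and NK cell markers 3, 0 and 0 were lower, with medians of -1.61, 0 and 0. Medians of 0 belong to lists that lay mostly below the floor by then. Osteoclast markers ran the other way, with 8 of 12 higher and 1 lower on day 4 compared with day 1 (median 1.19), 5 higher on day 5 compared with day 4 (median 0.78) and 2 higher on day 7 compared with day 5 (median 0.16). On day 1 8 of the 12 osteoclast markers were above the floor, with Car2 at 7267, Mmp9 at 4173 and Acp5 at 2604, and Calcr, Dcstamp, Ocstamp and Oscar were below it. Car2, the brightest of these on day 1, was the 1 marker lower on day 4, at 656. On day 4 11 of the 12 were above the floor, and on days 5 and 7 all 12. Core platelet genes were thus without a call on day 4, while 10 of 14 neutrophil and 9 of 10 red cell markers were lower. Of 13 endothelial markers 0 were called at that step too. Under quantile normalization 1 core gene, F2rl3, was called higher. The differences between these lists were not tested.

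The precision of a difference can be described only within an array pair. Over 18 spiked control probe sets the SD of the log2 difference was 0.07 to 0.17 in the 5 comparisons, and the pooled SD over a gene's own probe sets was 0.26 to 0.53. Neither measures variation between cultures. Where a gene had more than 1 probe set that both arrays measured, all probe sets ran one way in 9 of 14 for day 4 against day 1, in 9 of 11 for day 5 against day 4 and in 4 of 6 for day 7 against day 5. The median signal of all probe sets was 38.3, 34.3, 32.3 and 26.2 on days 1, 4, 5 and 7.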

How the data were processed

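Total RNA (250 ng per sample) was labelled as biotinylated cRNA and hybridised to 1 Affymetrix array per day. The authors deposited 1 linear intensity value per probe set and array, made with GCOS 1.4 and MAS5 per the submitters' processing notes; the sources used here do not give the scaling target. Neither detection calls nor probe-level data entered. Precision is limited by the number of arrays, and whether the samples were separate cultures is not given in the labels used here.

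Of 45101 probe sets 64 controls were left out. Of the other 45037, 34945 had 1 gene symbol in the platform annotation, 932 several and 9160 none; probe sets with several, among them 1 that names Gp1bb with another gene, or none were not named. Each gene was represented by the probe set whose mean log2 signal was highest. Signals under the floor of 32.4 were set to it and log2 differences taken between days. A gene above the floor on 1 array of a pair has a bound, counted at the bound in medians. With 1 array per group no test was made, and 2-fold was the call.

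The 39 genes, the core list and the other lists were chosen with earlier results of these data known, from textbook knowledge of the genes. All 39 were accounted for; of the other lists up to 4 genes with the largest differences in a comparison were named, and in addition Csf1r, Tie1, Itgb3 and 7 osteoclast genes, chosen after their values were seen. Promoter windows are those of RefSeq (GRCm38.p6), searched on both strands. The 8 alternatives were floors of 8.43 and 68.9 (the 25th and 60th percentiles), no floor with 16 added, quantile normalization, scaling of the arrays to 1 median over the probe sets above the floor on every array (median scaling), the mean over probe sets, leaving out probe sets that match several transcripts, and a 1.5-fold call. The counting was tested on simulated data. Python 3.11.15 was used with numpy 2.4.6, pandas 2.3.3 and matplotlib 3.10.9.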

Additional observations from a re-analysis of the deposited data

How the results depend on the processing

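The counts, medians and single differences of the 35 genes and the core were recomputed under 7 alternatives, and the counts also at a 1.5-fold call. Each difference of a single gene was counted again under each alternative, so the totals repeat the same differences. Of 636 such values of called differences 0 turned in sign. For a given probe set a change of floor cannot turn a sign, so this outcome was in part fixed in advance. Of 1210 values in all, 1033 moved by less than the pooled SD of a gene's probe sets while 177 moved by more. Leaving out probe sets that match several transcripts gave 165 of these values, all within that SD. With the floor at 8.43 the median was -1.27 for the 35 genes and -2.17 for the core on day 7 over day 5, -2.76 for the 35 genes on day 7 over day 4, and -3.92 for the core on day 7 over day 1. With the floor at 68.9, 34 genes and 10 core genes were measured; on day 7 over day 5, 6 genes and 4 core genes were lower, with medians of -0.29 and -0.79. The medians at that floor were -1.21 and -2.96 for the genes and the core on day 7 over day 4, and -1.06 and -2.77 on day 7 over day 1. A higher floor by its construction shortens the fall that can be measured. With no floor and 16 added, the core median on day 7 over day 5 was -1.86. On day 4 over day 1, 5 genes and 1 core gene were higher under quantile normalization, and 6 and 2 at a 1.5-fold call. With the mean over probe sets, the median was -1.28 for the core on day 7 over day 5, -1.44 for the genes and -3.13 for the core on day 7 over day 4, and -1.06 for the genes on day 7 over day 1. The median of all genes on day 7 over day 1 shifted to 0.14 under quantile normalization and 0.11 under median scaling; the counts of lower genes were then 22 and 21. For Pf4 the difference on day 7 over day 1 lay between -0.26 and 0.03 over all settings, so it has no direction. Of 50 medians of the other gene lists, 20 were past 1 in size and 0 of these turned in sign, and for the roles this held for 19 of 40 medians and 0 of 19. The median of B cell markers on day 5 over day 4 lay between -2.07 and -0.90, and 0 to 3 endothelial markers were lower on day 7 over day 5. No paired analysis was possible because each group holds 1 sample with no replicate. What lies near the floor is limited by signal over background: 13 of the 35 measured genes were below it on day 7. Of all probe sets, 46.6% were above the floor on that day.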
